A study of Canis lupus familiaris with 16 samples.

Results

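Transfer RNA (tRNA) genes were examined in RNA from 16 canine soft tissue sarcomas. Every gene of the count table whose name begins with TRNA, a letter code for the amino acid (or STOP) and an anticodon was taken, which gave 458 of the 41818 genes in 48 anticodon families. The tumors were formalin-fixed, paraffin-embedded specimens from canine patients, and RNA depleted of ribosomal RNA was sequenced from each. In the groups of the study's molecular identity label there were 4 fibrosarcomas (FS; S1-2, S1-11, S1-12 and S2-6), 6 peripheral nerve sheath tumors (PNST; S1-3, S1-4, S1-5, S1-9, S1-10 and S2-7) and 6 perivascular wall tumors (PWT; S1-7, S2-3, S2-4, S2-8, S2-9 and S2-11). The study had moved S1-10 from PWT to PNST and S2-8 from FS to PWT on their gene expression in these same libraries. The study's libraries were sequenced in separate groups. Whether the prefix S1 or S2 of a tumor's name marks them is not stated, and the prefix was spread unevenly over the types, with 3 of 4 FS, 5 of 6 PNST and 1 of 6 PWT in S1. S1-4 and S1-5 carry identical clinical labels, which do not say whether they came from separate dogs. They were counted as separate tumors, and the p-values measure the spread between the 16 tumors so counted.

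Transfer RNAs carry amino acids to the ribosome and read codons of the messenger RNA with their anticodon. Their genes are short, exist in many near-identical copies, and are transcribed by RNA polymerase III from promoters that lie mostly inside the gene; the precursors are trimmed at both ends, in some cases spliced, given a CCA end, modified at many bases and exported to the cytoplasm. Mature tRNAs are tightly folded and modified in ways that hinder reverse transcription, and many short interspersed repeats of the dog genome derive from a lysine tRNA.

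Between 507728 and 4311876 counts fell on genes in each tumor, and between 1030 (S1-5) and 11769 (S2-3) of these fell on tRNA genes. Among markers of the labelled cell types, the Schwann cell gene *S100B* ranged from 1.45 to 76.3 CPM in PNST. The collagen gene *COL1A1* ranged from 5656 to 41308 CPM in FS. CPM are read counts scaled to a library's TMM-adjusted total over the genes with enough counts. In bulk samples such as these, fewer cells of a type and less RNA per cell cannot be told apart. S2-3 stood apart in having the lowest share of reads with more than 1 alignment, 9.11% of its reads against 15.2% to 31.6% in the other tumors, in having the highest share of reads outside genes, 66.7% against 41.8% to 58.9%, and in having the most tRNA genes with a count.

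Most tRNA genes had too few counts to be compared. No read was counted on 96 of the 458 genes in any tumor, 362 had at least 1 count, 228 had at least 10 counts in total, and 46 had a count in all 16 tumors. The filter of at least 10 counts in at least 4 tumors was passed by 72 tRNA genes (15.7%, against 36.8% of all genes), and these 72 held 89.8% of the 72236 tRNA counts. They came from 31 of the 48 families, and the other 17 families had no copy with enough counts. Asparagine (17 copies), cysteine (19), tyrosine (10), histidine (8) and tryptophan (7) were the amino acids without a tested copy. Counts were concentrated, with 8 genes holding 50% of all tRNA counts and 36 genes holding 80%. Between 129 (S2-4) and 285 (S2-3) tRNA genes had a count in a given tumor, and of the 47 genes seen in a single tumor 18 were seen in S2-3 alone and 10 in S1-2 alone.

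The number of annotated copies said little about the counts of a family. *TRNASTOP-UCA*, a gene whose anticodon pairs with the stop codon UGA as that of the selenocysteine tRNA does, exists in 1 copy here and received 8071 counts, 11.2% of the total. The lysine family with anticodon CUU had the most copies (42) and received 1559 counts, 2.16% of the total, with 13 of its copies at 0 in all tumors. Across the 48 families, Spearman's rho between copies and total counts was 0.29 (a description across families that share the same 16 libraries). Reads that align to several places were not assigned to a gene, so identical copies cannot be told from silent ones, and the part of this in the order of the families was not tested. In some of the families of most counts a single copy held most of them, as *TRNAE-UUC-7* did with 77.1% of the glutamate family UUC (11 copies), *TRNAD-GUC-3* with 84.7% of the aspartate family GUC (17 copies) and *TRNAV-CAC-6* with 81.6% of the valine family CAC (9 copies). Of the 19 families with 10 or more copies, 5 had a copy with over 50% of the family's counts, and the median share of the leading copy was 38.1%. The lysine family CUU was the most widely spread of the 19, with 23.0% on its leading copy. In the glycine family GCC the leading copy, *TRNAG-GCC-5*, held 32.4%, and 7 of the 16 copies passed the filter. The 10 genes of highest mean level were *TRNAE-UUC-7*, *TRNASTOP-UCA*, *TRNAD-GUC-3*, *TRNAV-CAC-6*, *TRNAV-UAC-3*, *TRNAE-CUC*, *TRNAV-UAC-5*, *TRNAL-CAA-4*, *TRNAE-UUC-8* and *TRNAL-UAG-2*, and together they held 56.6% of tRNA counts.

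The share of gene counts on tRNA genes differed 18.6-fold between the lowest and the highest tumor. In FS it was 0.126% in S1-11, 0.299% in S2-6, 0.334% in S1-2 and 1.04% in S1-12. In PNST it was lowest at 0.0561% (S1-9), with a median of 0.0733% and a highest value of 0.244% (S1-4). In PWT it ran from 0.0997% (S2-8) through a median of 0.290% to 0.527% (S2-3). The 4 lowest tumors of all were the PNST S1-9, S1-5, S1-10 and S1-3, at 0.0561% to 0.0783%, whereas the other PNST, S2-7 (0.219%) and S1-4, lay inside the ranges of FS and PWT. The mean share was 0.450% ± 0.405 (SD, n = 4) in FS, 0.122% ± 0.0853 (n = 6) in PNST and 0.312% ± 0.184 (n = 6) in PWT, and the median of PNST was exceeded 4.32-fold by that of FS and 3.96-fold by that of PWT. Without S1-12, the mean of FS was 0.253%. The counting error was far smaller than the spread between tumors, with an exact 95% binomial interval of 0.0626% to 0.0708% for S1-5, the tumor with the fewest tRNA counts. Such intervals cover counting error only. No test was made on this sum over genes.

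**Figure D1:**
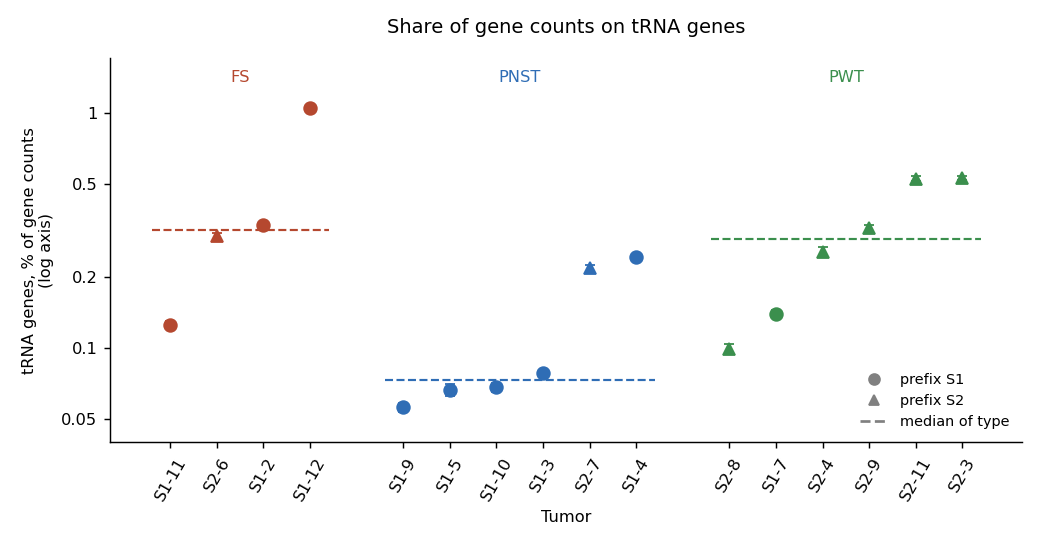
Percent of gene counts on the 458 tRNA genes (log axis) in each tumor, ordered within type, with exact 95% binomial intervals that cover counting error only; circles are S1 tumors, triangles S2 tumors and dashed lines the median of each type. The 4 lowest tumors are PNST, and the range of each type overlaps that of both other types.

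Repeat runs of the same S1 tumor gave nearly the same share. The highest of the 3 runs exceeded the lowest by a factor of 1.03 (S1-5) to 1.16 (S1-3), against a factor of 3.66 between S1-4 and S1-5, 2 PNST with the same type, histology and prefix. By prefix, the share had a median of 0.126% in the 9 S1 tumors (0.0561% to 1.04%) and of 0.299% in the 7 S2 tumors (0.0997% to 0.527%). Within S1, the 5 PNST had a median of 0.0683% (0.0561% to 0.244%), the 3 FS one of 0.334% (0.126% to 1.04%), and the single PWT was at 0.140%. Within S2, the 5 PWT had a median of 0.323% (0.0997% to 0.527%), with the single FS at 0.299% and the single PNST at 0.219%. The S1 FS, S1-11 excepted, thus lay above all S1 PNST, and the S2 FS and PNST lay within the range of the S2 PWT. Other small RNA classes, taken from the biotype of the matching RefSeq symbol, were distributed otherwise. Small nucleolar RNA genes held 1.69% to 8.79% of gene counts in FS, 4.39% to 9.21% in PNST and 9.61% to 20.8% in PWT, so that PWT lay above both other types, and small nuclear RNA genes held 0.289% to 1.10%, 0.285% to 0.918% and 0.788% to 1.52%, respectively. The share of reads with more than 1 alignment was 16.5% to 31.6% in FS, 16.6% to 28.1% in PNST and 9.11% to 24.1% in PWT, and that of reads outside genes was 41.8% to 57.5%, 46.1% to 54.6% and 48.2% to 66.7%, respectively. The part of RNA quality and of sequencing group in the tRNA share was not tested.

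By amino acid, tRNA counts were highest for the same 6 groups in all types. Glutamate tRNAs took a mean of 24.0% of a tumor's tRNA counts, valine tRNAs 15.7%, glycine tRNAs 12.7%, *TRNASTOP-UCA* 12.0%, aspartate tRNAs 10.3% and leucine tRNAs 8.52%. Valine tRNAs made up 20.7% ± 5.73 (SD, n = 4) of tRNA counts in FS, 12.1% ± 2.47 (n = 6) in PNST and 15.95% ± 4.55 (n = 6) in PWT, and their highest value was 27.1% in S1-12. Glycine tRNAs made up 12.2% ± 4.37 in FS, 17.0% ± 7.27 in PNST and 8.70% ± 3.13 in PWT, with the highest value, 29.7%, in S1-3. *TRNASTOP-UCA* made up 11.3% ± 2.76 in FS, 14.7% ± 4.34 in PNST and 9.77% ± 2.38 in PWT. For each of these 3 the ranges of the types overlapped. S2-3 had the lowest shares of glutamate tRNAs (11.9%) and of *TRNASTOP-UCA* (6.48%). Its share of leucine tRNAs was the highest of all tumors (14.6%), and a larger share of its tRNA counts than in any other tumor lay on families with few counts. The 30 families that held under 1% of all tRNA counts each made up 26.3% of its tRNA counts, against 3.97% to 14.6% in the other tumors, and asparagine tRNAs alone made up 2.52%. Of the 48 families, 25 had their highest CPM in S1-12 and 17 in S2-3.

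**Figure D2:**
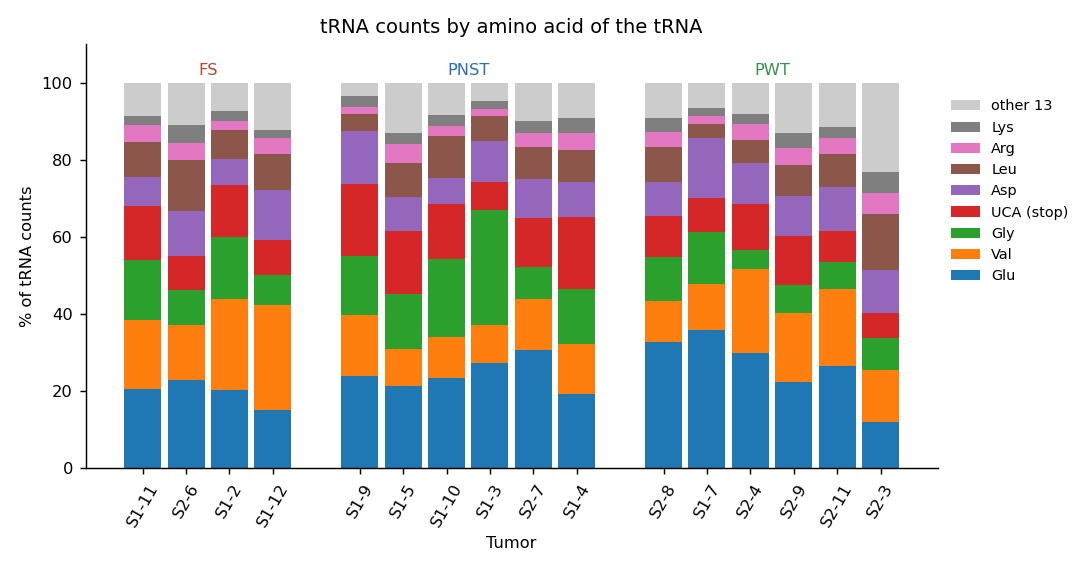
Percent of each tumor's tRNA counts by the amino acid of the tRNA, for the 8 groups of most counts and the other 13 together, with tumors ordered as by tRNA share within type. Glutamate runs from 11.9% in S2-3 to 35.9% in S1-7, and S2-3 has the tallest bar of other amino acids.

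Each type was compared with both other types pooled by edgeR's quasi-likelihood test, fitted on all 15408 genes that passed the filter, and a gene was called when its Benjamini-Hochberg adjusted p was under 0.05 and its absolute log2 fold change above 1. Levels below are CPM after TMM scaling, and 3 counts correspond to 0.853 to 5.52 CPM depending on the tumor. The comparisons share tumors and so are not independent of each other.

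In PNST, nearly all tested tRNA genes had lower levels than in FS and PWT pooled, and none was called. The log2 fold change was below 0 for 71 of the 72, with a median of -1.71 against -0.06 over all tested genes. The 72 genes share the same tumors and are not independent of each other. Spearman's rho of their CPM with a tumor's total tRNA share ran from -0.14 (*TRNAG-GCC-5*) to 0.96 (*TRNAM-CAU-20*). Calls were made on 0 of the 72, as on 0% of all genes, and the smallest adjusted p of a tRNA gene in edgeR's test was 0.112. At an unadjusted p under 0.05, 46 of the 72 were lower and 0 higher, against 9.1% of all tested genes lower and 6.57% higher by the same rule, and leaving out each tumor in turn gave 31 (without S1-5) to 56 (without S1-4). DESeq2, which tests more genes at low counts, called 18 tRNA genes lower of the 132 to which it gave an adjusted p, against 1.07% of all genes, and 14 of these 18 had passed the filter. A model that also held the prefix gave 35 of the 72 lower at an unadjusted p under 0.05 (7.18% of all genes) and a median of -1.33, with no call.

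*TRNAK-CUU-12*, a lysine tRNA gene, had the smallest p in PNST. Its CPM in PNST was 0 at the lowest, 1.01 at the median and 1.57 at the highest, all near the level of 3 counts. In PWT it was 2.28, 6.35 and 9.73, and in FS 1.10 (S1-11), 6.65 (S2-6), 6.81 (S1-2) and 12.9 (S1-12). All PNST lay below all PWT and below all FS but S1-11. Too few tumors had enough counts to test it when any of 4 tumors was left out. The log2 fold change was -2.61 ± 0.56 (SE; edgeR adjusted p = 0.112), and DESeq2 called it (-2.67, adjusted p = 0.00255). *TRNAM-CAU-5*, a methionine tRNA gene, was at 0.905, 3.16 and 19.6 in PNST, at 13.7, 36.7 and 110.7 in PWT, and at 6.58 (S1-11), 13.3 (S1-2), 19.5 (S2-6) and 186.0 (S1-12) in FS. S2-7 was the PNST at 19.6, and the other 5 PNST lay below all FS and PWT. Its log2 fold change was -3.15 ± 0.80 (adjusted p = 0.137, edgeR) and its adjusted p in DESeq2 was 0.00329. *TRNAV-CAC*, a valine tRNA gene, was at 0, 1.29 and 3.92 in PNST and at 0.547, 10.5 and 54.5 in PWT. In FS it was at 4.39 (S1-11), 4.75 (S2-6), 29.5 (S1-12) and 125.8 (S1-2), so that S1-2 and S2-3 stood far above the rest. The log2 fold change was -3.94 ± 1.05 (adjusted p = 0.154, edgeR). The valine gene *TRNAV-UAC-3* was at 9.35, 13.9 and 71.2 in PNST against 21.9, 123.1 and 314.2 in PWT, with a log2 fold change of -2.71 ± 0.73 (adjusted p = 0.157, edgeR). *TRNAV-AAC-5* reached 10 counts in only 3 tumors and was not tested by edgeR; its highest CPM in PNST was 1.68 and its lowest in FS 4.94, and DESeq2 called it lower in PNST (-3.08, adjusted p = 0.00416). These 5 genes and *TRNAE-UUC* stand among the genes the study singled out from these same tumors, so their values are not independent evidence.

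The abundant tRNA genes lay in the same direction. All 10 genes of highest mean level had a log2 fold change below 0 in PNST, from -2.77 (*TRNAV-UAC-5*) to -0.66 (*TRNAE-CUC*), and 8 of the 10 had an unadjusted p under 0.05. The exceptions were *TRNAE-CUC* and *TRNASTOP-UCA*, which was at 70.2, 105.2 and 430.2 CPM in PNST (lowest, median, highest), at 103.9, 309.4 and 460.8 in PWT, and at 211.4 (S2-6), 223.7 (S1-11), 444.9 (S1-2) and 896.8 (S1-12) in FS. The gene with the highest fold change in PNST, and the only one above 0, was *TRNAG-GCC-5* (0.56 ± 0.50, adjusted p = 0.598 in edgeR), whose sign turned once the prefix was in the model (-0.07).

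**Figure D3:**
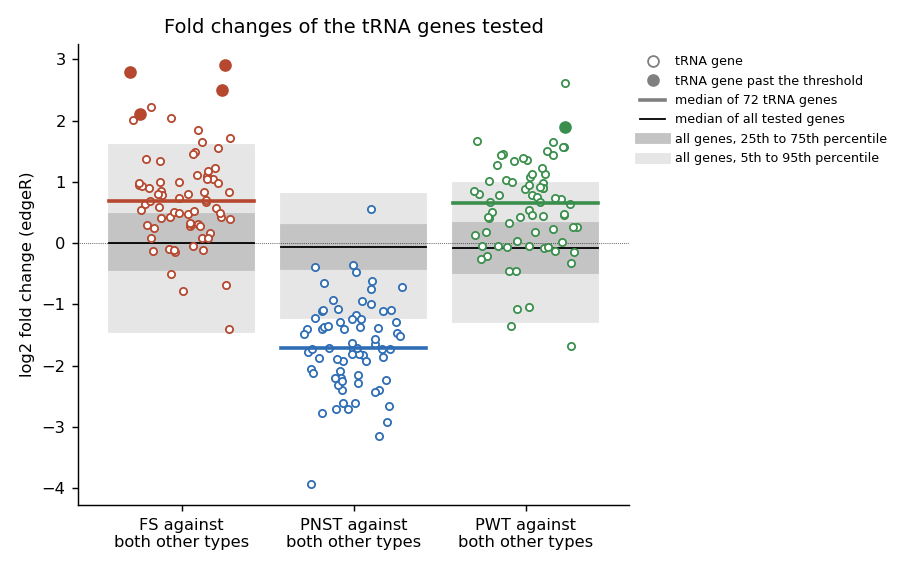
Log2 fold changes (edgeR) of the 72 tRNA genes tested in each type against both other types pooled; filled points passed the threshold, coloured lines are the medians of the tRNA genes (0.69, -1.71 and 0.66), and grey boxes with a black line show the percentiles and median of all 15408 tested genes. In PNST, all tRNA genes but 1 lie below 0.

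In FS, 4 of the 72 tRNA genes were called, all higher, against 5.78% of all tested genes called higher. The median log2 fold change was 0.69 (0.004 over all genes), 62 of the 72 were above 0, and 10 were higher at an unadjusted p under 0.05 (13.9% of all genes). That shift rested on S1-12, without which the median was 0.06. *TRNAG-GCC-4*, a glycine tRNA gene, was at 3.33 CPM in S2-6, 8.22 in S1-11, 42.4 in S1-12 and 169.6 in S1-2, against 2.34, 5.96 and 17.3 (lowest, median, highest) in PNST and 2.79, 6.44 and 14.9 in PWT. Its rise (log2 fold change 2.80 ± 0.63, adjusted p = 0.00809) lay in S1-2 and S1-12, and it was not called without S1-2 (1.02, adjusted p = 0.377). *TRNAV-AAC-4*, a valine tRNA gene, was at 3.68 in S1-12, 13.8 in S2-6, 15.9 in S1-11 and 72.1 in S1-2, against at most 6.73 in PNST and 12.9 in PWT. It rose by a log2 fold change of 2.91 ± 0.79 (adjusted p = 0.0231), which fell to 1.69 (adjusted p = 0.259) without S1-2. *TRNAG-GCC-8* was at 2.38 in S2-6, 3.84 in S1-11, 15.4 in S1-2 and 73.7 in S1-12, against at most 6.60 in PNST and 14.1 in PWT (2.51 ± 0.73, adjusted p = 0.0344). Its fold change was 0.93 without S1-12 (adjusted p = 0.468), and its adjusted p also passed the threshold narrowly, reaching 0.0502 without S1-7, 0.0514 without S1-10 and 0.0520 without S2-8. *TRNAD-GUC-6*, an aspartate tRNA gene, was at 2.19 in S1-11, 6.10 in S1-2, 29.5 in S2-6 and 34.99 in S1-12, against at most 5.04 in PNST and 10.9 in PWT (2.11 ± 0.62, adjusted p = 0.0355), and was not called without S1-12 (1.64, adjusted p = 0.132), S2-6 (1.68, 0.170), S1-5 (2.03, 0.0509), S1-7 (2.07, 0.0530) or S1-10 (2.02, 0.0538). In none of these 4 genes did all FS lie above all other tumors.

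More tRNA genes were called in FS with the prefix in the model, and among the S1 tumors alone. S1 holds 5 PNST but S1-7 as its only PWT, so the fit in S1 alone set FS almost wholly against PNST. The prefix term also overlaps with PNST and PWT. A change of comparison group and a part of the prefix were not told apart. With the prefix in the model, 9 of the 72 were called, all higher (5.59% of all genes), and the median log2 fold change was 1.39. *TRNAG-GCC-8* was then no longer among them (adjusted p = 0.0591). Among the S1 tumors alone, 10 of 41 tested were called, all higher (3.4% of all genes), with a median of 1.80, and all 41 were above 0. The genes added included the abundant *TRNAL-CAA-4* (2.72, adjusted p = 0.0194 in that model), *TRNAV-CAC-6* (2.23, adjusted p = 0.0353) and *TRNAV-UAC-5* (3.34, adjusted p = 0.0448), whose levels in FS were highest in S1-12 at 534.0, 1063 and 731.1 CPM. The tRNA genes of smallest p among those lower in FS, *TRNAF-GAA-9*, *TRNAE-UUC* and *TRNAK-CUU-21*, had log2 fold changes of -1.40 ± 1.25, -0.79 ± 0.70 and -0.68 ± 1.01 and adjusted p-values of 0.528, 0.528 and 0.733.

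In PWT, 1 of the 72 tRNA genes was called, against 1.41% of all genes called higher. *TRNAE-UUC*, a glutamate tRNA gene, was at 8.75, 13.2 and 20.2 CPM (lowest, median, highest) in PWT and at 1.14, 2.69 and 7.29 in PNST, and in FS at 2.38 (S2-6), 2.74 (S1-11), 5.52 (S1-12) and 8.96 (S1-2). All PWT lay above all other tumors, save that S1-2 exceeded the lowest PWT, S2-8. The counts behind these levels were low, from 3 (S1-12 and S1-5) to 25 (S1-2) outside PWT and from 8 (S2-4) to 35 (S2-3) in PWT. The log2 fold change was 1.90 ± 0.41 (adjusted p = 0.0274). Leaving out S2-4 or S2-11 ended the call (adjusted p = 0.0614 and 0.0799), as did adding the prefix to the model (1.88, adjusted p = 0.247). The level in the S1 PWT, S1-7, was 19.4, against at most 8.96 in the other S1 tumors. Of the other copies of its family, *TRNAE-UUC-7* had a log2 fold change of 1.01 ± 0.60 (adjusted p = 0.322) and *TRNAE-UUC-8* of 0.54 ± 0.50 (adjusted p = 0.545), and the difference between copies was not tested. Over the 72 genes the median was 0.66 (-0.08 over all genes), 55 were above 0, and 4 were higher and 1 lower at an unadjusted p under 0.05, against 10.5% and 11.8% of all genes. Without S2-3 the median was 0.24. The next genes by p were *TRNAF-GAA-9* (2.61 ± 0.82, adjusted p = 0.0821, and 0.0484 in DESeq2, which called it), whose PWT values of 0 to 25.3 CPM overlapped the other types, and *TRNAK-CUU-10* (1.499 ± 0.54, adjusted p = 0.116). On the lower side, *TRNAG-GCC-5* (-1.04 ± 0.49), *TRNAG-GCC-4* (-1.67 ± 0.90) and *TRNAV-AAC-4* (-1.36 ± 1.07) had adjusted p-values of 0.218 to 0.469.

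**Figure D4:**
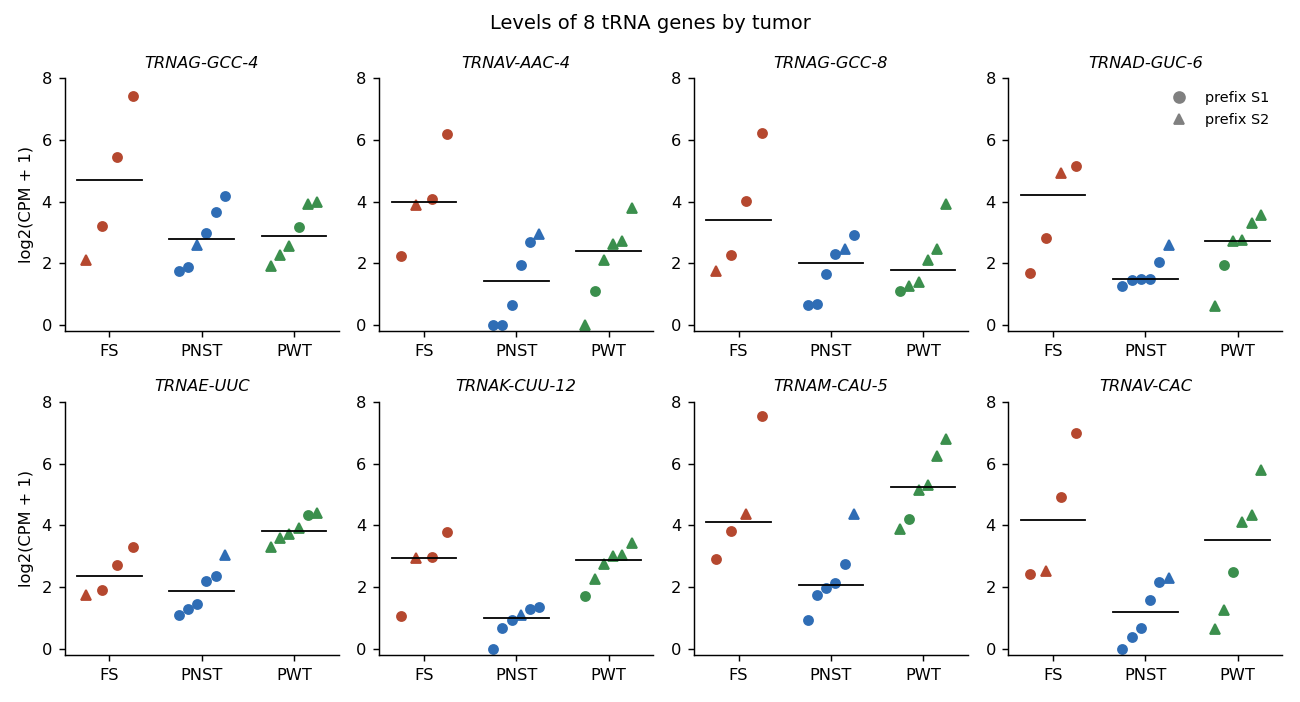
Levels of 8 tRNA genes, as log2(CPM + 1), in each tumor by type; circles are S1 tumors, triangles S2 tumors and lines the median of each type. The top row holds the 4 genes called higher in FS, where 1 or 2 tumors lie far above the rest, and the bottom row *TRNAE-UUC*, called higher in PWT, and the 3 genes of smallest p in PNST.

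Between the prefixes, with type as a term, 0 of the 72 tRNA genes were called (0% of all genes), 3 being higher in S1 and 4 lower in S1 at an unadjusted p under 0.05, against 6.05% and 6.94% of all genes. The median log2 fold change of S1 over S2 was -0.88 (0.02 over all genes), and 63 of the 72 were below 0. The genes of smallest p went in opposite directions. *TRNAG-GCC-7* was at 2.34, 23.9 and 42.2 CPM (lowest, median, highest) in S1 and at 2.85, 6.73 and 9.73 in S2 (2.15 ± 0.51, adjusted p = 0.162), and *TRNAG-GCC-5* at 23.4, 73.5 and 143.3 in S1 and 13.9, 21.9 and 43.4 in S2 (1.85 ± 0.47, adjusted p = 0.168). DESeq2 called both higher in S1 (0.547% of all genes by the same rule), with adjusted p-values of 0.0224 and 0.0161. Lower in S1 were *TRNAE-CUC-8* (-1.65 ± 0.47, adjusted p = 0.20), *TRNAL-UAG* (-1.85 ± 0.63, adjusted p = 0.252) and *TRNAG-GCC-2* (-2.04 ± 0.75, adjusted p = 0.278).

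Copies of the glycine family GCC did not all vary together across tumors, but differences between copies were not tested. Over its 7 tested copies, Spearman's rho of CPM across the 16 tumors ranged from -0.27 to 0.89 between pairs (median 0.59, 21 pairs). The median over all 89 pairs of copies of the same family was 0.74 (-0.27 to 0.93), and that over 2467 pairs of different families was 0.71. These pairs share libraries and depth and are given as a description. *TRNAG-GCC-5* was the tested tRNA gene that followed the total tRNA share least (rho -0.14, 16 tumors, a description), and its level was highest in the PNST S1-3, at 143.3, while *TRNAG-GCC-4* was highest in S1-2 and *TRNAG-GCC-8* in S1-12.

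**Figure D5:**
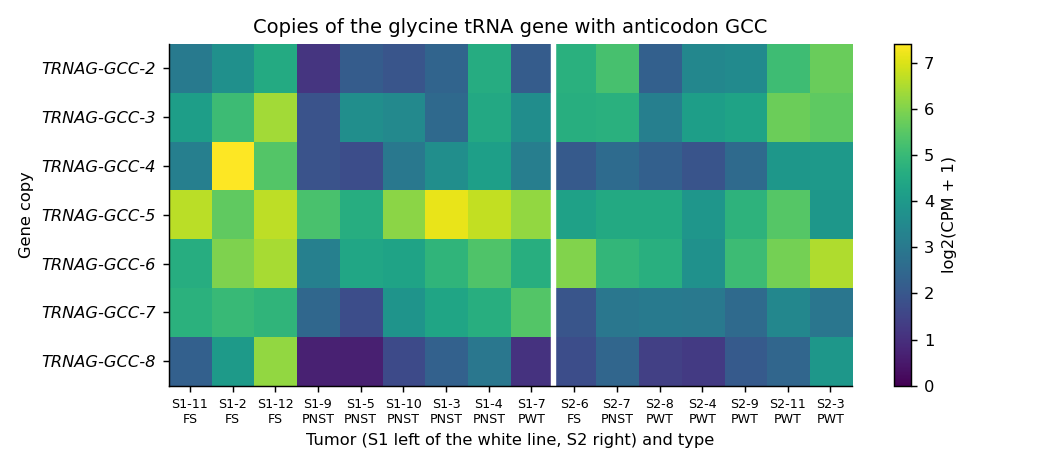
Levels, as log2(CPM + 1) on a colour scale, of the 7 tested copies of the glycine tRNA gene with anticodon GCC in the 9 S1 tumors (left of the white line) and the 7 S2 tumors (right), with the type under each tumor. *TRNAG-GCC-5* and *TRNAG-GCC-7* are brighter in most S1 tumors. The brightest cell of *TRNAG-GCC-4* is the FS S1-2, followed by the FS S1-12, and that of *TRNAG-GCC-8* is the FS S1-12.

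When the copies of a family were summed, 43 of the 48 families passed the filter, all but the alanine family AGC, the aspartate family AUC, the proline family AGG, the serine family ACU and the tryptophan family CCA. In PNST all 43 had a log2 fold change below 0, with a median of -1.90, and 36 were lower at an unadjusted p under 0.05 (9.07% of all features), while 0 were called (12 in DESeq2, against 1.08% of all features) and the smallest adjusted p was 0.104, for the alanine family CGC (-2.24 ± 0.47). In FS the valine family AAC was called (5.79% of all features called higher). It was at 25.7 CPM in S2-6, 29.6 in S1-11, 47.9 in S1-12 and 107.2 in S1-2, against 2.54, 5.96 and 12.3 (lowest, median, highest) in PNST and 4.92, 24.5 and 44.9 in PWT. All FS lay above all PNST and overlapped PWT. The log2 fold change was 1.86 ± 0.58 (edgeR adjusted p = 0.0475), a call near the threshold. No family was called in 12 of the 16 fits that left out a tumor, the fits without S2-3, S2-4, S2-6 and S2-11 being the exceptions. Adding the prefix to the model gave 7 families higher in FS (5.62% of all features), those of valine (AAC, CAC and UAC), leucine (CAA), arginine (CCU), methionine (CAU) and threonine (CGU). In PWT 0 families were called by edgeR or DESeq2, and in edgeR 4 of the 43 were higher at an unadjusted p under 0.05, near the share over all features (10.6%).

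Genes of the machinery that makes, charges and cleaves tRNAs were examined beside them. Of 109 listed genes, 107 were in the table and 105 were tested. In FS 3 were called, all higher, a smaller share than the 5.78% of all genes. *XPOT*, which exports tRNAs from the nucleus, was at 133.8 CPM in S1-11, 153.5 in S2-6, 163.9 in S1-12 and 255.3 in S1-2, against 59.0, 79.0 and 97.5 in PNST and 56.9, 100.8 and 123.2 in PWT, so that all FS lay above all other tumors (1.04 ± 0.22, adjusted p = 0.00609). *POLR3GL*, a subunit of RNA polymerase III, was at 8.25 in S1-2, 11.0 in S1-11, 16.2 in S2-6 and 20.3 in S1-12, against at most 8.81 in PNST and 8.08 in PWT (1.18 ± 0.35, adjusted p = 0.0350). *BRF2*, an initiation factor for genes with an upstream promoter, was at 7.89 in S1-2, 22.1 in S1-12, 27.6 in S2-6 and 59.2 in S1-11, against at most 18.8 in PNST and 13.9 in PWT (1.24 ± 0.38, adjusted p = 0.0432), and its call was lost in 11 of the 16 fits that left out a tumor, most clearly without S1-11 (0.60, adjusted p = 0.418). *XPOT* fell to 0.81 (edgeR adjusted p = 0.0377) without S1-2, its highest tumor, and just under the fold threshold without S1-5, S1-10 or S2-11. *POLR3GL* was not called without S1-12 (0.97, adjusted p = 0.107), S1-11, S2-6, S2-8 or S2-9. *DICER1*, a nuclease that processes small RNAs, was lower in FS by less than the fold threshold (-0.67 ± 0.19, adjusted p = 0.0325).

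In PNST and PWT 0 of the 105 machinery genes were called by edgeR. DESeq2 called 0 in PNST and 1, lower, in PWT (*BRF2*, adjusted p = 0.0483, against 2.59% of all genes called lower). At an unadjusted p under 0.05 in edgeR, 8 were higher and 3 lower in PNST (6.57% and 9.1% of all genes), and 10 were higher and 12 lower in PWT, close to the shares over all genes (10.5% and 11.8%). In PNST the smallest p-values were those of the polymerase subunit *POLR3D* (0.80 ± 0.24, adjusted p = 0.182), of the synthetase-complex gene *EEF1E1* (-0.94 ± 0.30, adjusted p = 0.20) and of *CTU2*, which thiolates the wobble base (0.74 ± 0.26, adjusted p = 0.220). The 13 polymerase III genes had a median log2 fold change of 0.11 in PNST. The group of 12 genes that holds the initiation factors and the repressor *MAF1* had one of 0.16, where the tRNA genes had one of -1.71. A relation between these medians was not tested. In PWT the isoleucine and phenylalanine synthetase genes *IARS1* (-0.55 ± 0.18) and *FARSA* (-0.74 ± 0.24) and the initiation factor gene *BDP1* (0.61 ± 0.20) had adjusted p-values of 0.0980, 0.0852 and 0.0987. Of the 24 genes of cytosolic synthetases and their scaffold, 6 were lower and 0 higher in PWT at an unadjusted p under 0.05. The shares over all genes were the same 11.8% and 10.5%.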

How the data were processed

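Per the study's methods, RNA from sections of each tumor block was depleted of ribosomal RNA, made into libraries with the Ion Total RNA-Seq kit without further fragmentation and sequenced on an Ion Proton. The authors aligned reads to ROS_Cfam_1.0 with STAR and deposited raw read counts per gene from htseq-count; versions, annotation release and strand setting are not given in the sources used here. Reads with more than 1 alignment are not in the gene counts. Runs of an S1 tumor were summed. edgeR 4.0.16 (TMM, quasi-likelihood test; genes reaching 10 counts in 4 or more tumors) was used for tests, and DESeq2 1.42.0 as an alternative. CPM is the count scaled to the TMM-adjusted total of the filtered genes. Of the genes, 39178 matched a RefSeq symbol of UU_Cfam_GSD_1.0, used for biotypes only. The tests were tested on simulated data. Members and lists were chosen with earlier results of these data known. Named genes are the 10 of highest mean CPM, those called, the 3 of smallest p in each direction and comparison, 6 genes listed by the study, the 5 of smallest p between prefixes and, for the machinery, those called and the 3 of smallest p. Alternatives were other scalings, filters and groupings, the prefix as a term, single prefixes and leaving out each tumor.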

Additional observations from a re-analysis of the deposited data

Results flagged for a closer look

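Of 119 groups of values examined for a tumor lying far from the rest (Dixon's criterion), 16 had such a tumor. The criterion's rate of about 1 group in 20 holds for independent, normally distributed values. These groups share tumors and hold skewed levels, so the 16 cannot be set against that rate. Among all S1 tumors, S1-12 had an outlying tRNA share of 1.04%. Among FS, S1-12 was far above the other 3 for *TRNAD-GUC-3* (1140 CPM), *TRNAE-UUC-8* (219 CPM), *TRNAM-CAU-5* (186 CPM), *TRNAV-CAC-6* (1060 CPM), *TRNAV-UAC-3* (698 CPM) and *TRNAV-UAC-5* (731 CPM). S1-12 was also the tumor with the fewest gene counts (507728) and its 3 runs gave shares of 1.03% to 1.07%. S1-11 was low among FS for *TRNAL-UAG* (3.84 CPM). Among PNST, S2-7 was high for *TRNAE-CUC-8* (34.2 CPM) and *TRNAM-CAU-5* (19.6 CPM), and S1-10 for *TRNAF-GAA-9* (5.44 CPM). Among PWT, S2-3 was high for *TRNAG-GCC-8* (14.1 CPM), *TRNAK-CUU-21* (44.4 CPM) and *TRNAV-CAC* (54.5 CPM), S1-7 for *TRNAG-GCC-7* (42.2 CPM) and S2-8 for the synthetase gene *IARS1* (113 CPM).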

How the results depend on the processing

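The median log2 fold change of tRNA genes in PNST was below 0 under each alternative run. It stayed between -2.002 and -1.43 when single tumors were left out. The number of tRNA genes lower in PNST at an unadjusted p under 0.05 was 46, and 133 with no filter, 108 with a minimum of 10 counts in total, 100 in DESeq2, 25 in the histology groups and 25 in S1 tumors alone; the wider filters and DESeq2 test more genes, and S1 alone fewer. Calls in PNST, 0 in edgeR, were 18 of 132 in DESeq2, all lower (202 of 18846 genes called lower). The 3-group model called 1 of 72, lower (50 of 15408). DESeq2 with the prefix as a term, an alternative chosen after seeing the data, called 7. Families called in these settings were 12, 2 and 4, in the same order. Calls in FS were 4 of 72 at first (890 of 15408 genes called higher). They were 9 of 362 with no filter (1383 of 36420) and 9 of 228 with 10 counts in total (1359 of 25712). DESeq2 called 9 of 175 (1304 of 21343) and the prefix as a term 9 of 72 (862 of 15408). The 3-group model called 7 of 72 (1033 of 15408) and S1 alone 10 of 41 (488 of 14371). The histology groups gave 0 of 72 (191 of 15408). DESeq2 with the prefix, the alternative chosen after seeing the data, called 28, given here without a share over all genes. When a tumor was left out, 2 to 7 were called (2 without S1-2, S1-7, S1-10 or S1-12). Counts of calls given here without a share over all genes or features are not set against such a share. The median in FS was 1.80 in S1 alone, and 0.06 to 1.01 without single tumors. Families called in FS, 1 at first, were 0 with upper quartile factors, in the histology groups or with S1-4 and S1-5 summed, 7 with the prefix as a term, 3 in the 3-group model, 9 in S1 alone, 13 in DESeq2 with the prefix, and 0 to 3 without single tumors. The single call in PWT was 0 with no filter, in the histology groups, with the prefix as a term in edgeR or DESeq2 and in S2 alone, 2 in DESeq2, and 0 to 2 without single tumors. Between prefixes, 3 tRNA genes were called with no term for type and 2 in DESeq2. Machinery genes called in FS, 3 at first, were 1 with upper quartile factors, no filter, 10 counts in total or S1 alone, 0 in the histology groups, and 1 to 4 without single tumors; in PWT 1 was called in DESeq2 and 1 in the 3-group model, both lower. As a share of all reads listed, the mean tRNA share was 0.115% in FS, 0.0328% in PNST, 0.0746% in PWT, 0.0626% in S1 and 0.0769% in S2. Among the fold changes for which a gene was chosen, sign changes were seen in *TRNAE-UUC* in FS (0.26 in S1 alone), *TRNAF-GAA-9* in FS (0.24 in the histology groups), *TRNAK-CUU-21* in FS (-0.90 to 0.0335 when single tumors were left out, the latter without S2-3, and 0.15 in DESeq2 with the prefix), *TRNAG-GCC-4* in PWT (0.053 in DESeq2 with the prefix) and *TRNAG-GCC-5*, in PNST (-0.0749 with the prefix as a term, -0.0934 in S1 alone and -0.10 in DESeq2 with the prefix) and in PWT (0.13, 0.29 in S2 alone and 0.13). Other fold changes of named genes changed sign too, among them in FS those of *TRNAM-CAU-5* (1.00, and -0.997 at the lowest when single tumors were left out), *TRNAV-UAC-5* (1.72 and -0.26) and *TRNAE-UUC-7* (0.31 and -0.53). Except where stated, the cause was not tested. No paired analysis was possible because the replicate numbers only name tumors and pair none across types.

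Low counts limit what can be seen, since 386 of the 458 tRNA genes could not be tested singly. Near-identical copies share reads, and without a stated strand setting genes that overlap others or lie antisense to them have uncertain counts. Type and prefix overlap so far that effects of the PWT type and of the prefix can hardly be told apart. The same limit holds for PNST, of which S2-7 is the only tumor outside S1.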
